A study of Rattus norvegicus with 54 samples.

Results

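Gene expression in epididymal white adipose tissue was compared between 2 groups of male Sprague-Dawley rats that received a high-fructose diet with NDGA, of which 1 also carried the letters INS in its diet label. NDGA, nordihydroguaiaretic acid, is a lignan of the creosote bush and an inhibitor of lipoxygenases. The arrays were chosen by their labels alone, the 3 adipose arrays of diet HF-NDGA-INS and the 3 of diet HF-NDGA, 6 of the 54 arrays of the series. The series also holds the diets CHOW, CHOW-INS, HF (high fructose) and HF-INS in adipose tissue, and all 6 groups in liver and gastrocnemius muscle. Neither the labels nor the methods of the paper explain the letters INS, so the comparison is reported by its label and no treatment is assumed. The sample protocol gives 2.5 g of NDGA per g of diet, as written there, and 16 weeks of feeding, while the design text of the series gives 2.4 g per kg diet and 8 weeks; the age of the rats is not given in the sources used here. RNA of the rats of a group was pooled in equal amount and hybridized on 3 repeat arrays, so that the p-values below speak of repeat arrays of a pool and carry no information on how rats of a group differ, and precision is limited by having 3 arrays.

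White adipose tissue stores triglyceride in adipocytes and secretes adipokines, and it also holds preadipocytes, macrophages, mast cells, lymphocytes, vessels and a mesothelial cover. Insulin drives glucose uptake and fatty acid synthesis in adipocytes and restrains lipolysis. Interferons signal through surface receptors and induce antiviral and antigen presentation genes together with the chemokines CXCL9, CXCL10 and CXCL11, which share the receptor CXCR3 on T cells.

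On the 6 arrays 57.7% to 63.1% of probes were detected (detection p under 0.05), and the log2 of the median intensity was 7.04 to 7.21 on HF-NDGA and 7.18 to 7.46 on HF-NDGA-INS. Arrays of the 2 groups lay close together: the root mean square distance between an array of each was 0.41 on the log2 scale over all genes, against 0.38 among the HF-NDGA arrays and 0.34 among the HF-NDGA-INS arrays. The HF group of the same tissue stood apart, at a distance of 0.81 from HF-NDGA. All 12 adipocyte markers were detected in both groups, and *Adipoq*, the gene of adiponectin, read 15.996, 15.92 and 15.997 on the HF-NDGA arrays and 15.81, 15.95 and 15.86 on the HF-NDGA-INS arrays, at saturation on part of them.

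Of 19791 gene entries tested with limma, 1638 passed an adjusted p of 0.05 (8.28%), 1019 of them higher (5.15%) and 619 lower (3.13%) on HF-NDGA-INS than on HF-NDGA. Most differences were small: 0.515% of entries passed and also differed by at least 2-fold, 53 of them higher (0.268%) and 49 lower (0.248%). For 4831 entries (24.4%) the 3 arrays of a group did not overlap with the 3 of the other, 2606 higher (13.2%) and 2225 lower (11.2%). Of the 1638 called entries, 160 were not above background in either group, and without the first HF-NDGA-INS array 1088 entries passed. The share of calls that were higher, 62.2%, rested on the scaling: it was 50.6% when arrays were scaled at their 75th percentile and 94.8% without scaling, where the median of all genes itself lay 0.15 above 0. For the entries with a fold of at least 2 the share was 52%, and 40.6% and 77.1% under those settings. All differences below are on the quantile-normalized log2 scale, HF-NDGA-INS minus HF-NDGA, and are therefore relative to the bulk of the genes; in bulk tissue, fewer cells of a type and less RNA per cell cannot be told apart.

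**Figure D1:**
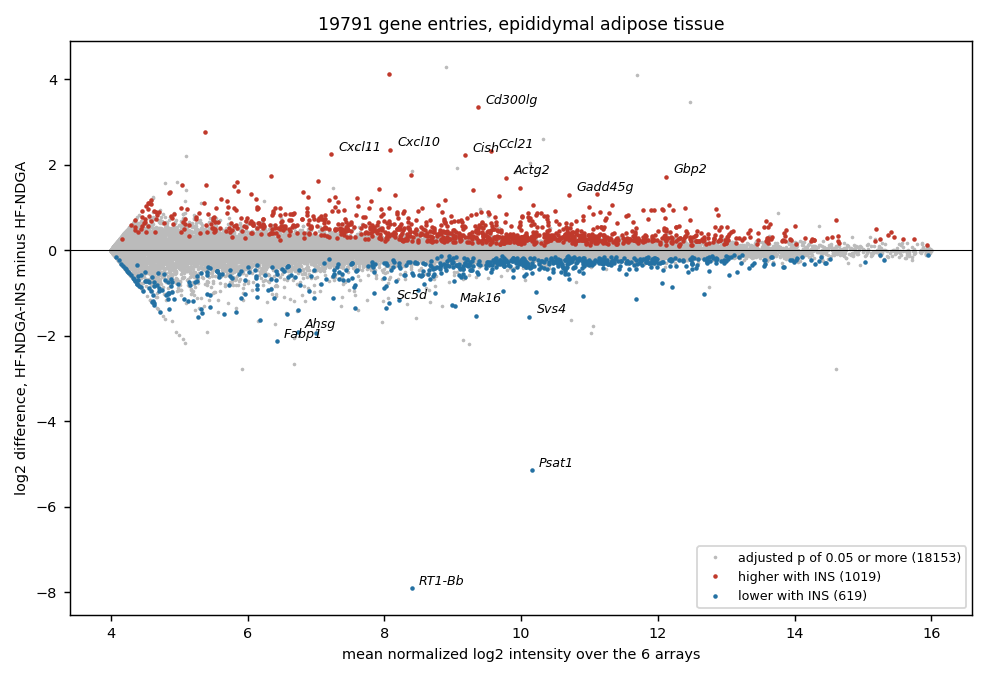
Difference between HF-NDGA-INS and HF-NDGA (log2, vertical axis) against the mean normalized log2 intensity over the 6 arrays (horizontal axis) for all 19791 gene entries; red points were higher and blue points lower with INS at an adjusted p under 0.05, grey points did not pass. Most calls lie within 1 log2 unit of 0, and *RT1-Bb* lies below all other called entries, at -7.92.

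Genes of the interferon response rose together. Of 24 listed genes 16 passed the test, all higher, where 5.15% of all entries were called higher, and all 24 had a difference above 0, with a median of 0.40 against 0 over all genes tested. The leading member was *Gbp2*, a guanylate-binding GTPase of cell-autonomous defence, with 11.26, 11.32 and 11.21 on the HF-NDGA arrays and 12.93, 13.02 and 12.99 on the HF-NDGA-INS arrays. The groups were far apart and differed 3.28-fold (log2 1.71, SE 0.04, adjusted p 3.49e-11). *Tap1*, a subunit of the peptide transporter that loads MHC class I, read 11.63, 11.64 and 11.61 against 12.65, 12.78 and 12.65 and rose 2.10-fold (adjusted p 2.75e-08). *Mx1*, an antiviral dynamin-like GTPase, read 11.29, 11.25 and 11.37 against 12.36, 12.20 and 12.20 (log2 0.95, adjusted p 1.23e-07). Neither gene overlapped between the groups. The immunoproteasome subunit *Psmb8* rose by 0.88, *Mx2* and the ubiquitin-like modifier *Isg15* by 0.66 and 0.66, the transcription factor *Irf1* by 0.56, and the ISG15 protease *Usp18* by 0.54. Smaller rises were those of *Oas1a* (0.47), which makes the activator of RNase L, of *Ifit3* (0.46), of *Stat2* (0.31), and of *Psmb9* (0.33). Of the genes named here *Psmb9* lost its call under 8 of 19 alternative settings, *Ifit3* under 2 and *Oas1a* under 1 (adjusted p up to 0.263, 0.0672 and 0.053).

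The chemokines that bind CXCR3 were among the largest rises. *Cxcl10* read 6.72, 6.98 and 7.004 on HF-NDGA and 9.23, 9.32 and 9.23 on HF-NDGA-INS, 5.13-fold higher (SE 0.086 on the log2 scale, adjusted p 2.31e-09). *Cxcl11* read 5.96, 6.11 and 6.25 against 8.32, 8.40 and 8.33; it was detected on none of the HF-NDGA arrays, so the rise is given as at least 4.14-fold (adjusted p 1.48e-09), counted from the dimmest detected probe of each array. *Cxcl9* read 10.44, 10.46 and 10.46 against 11.72, 11.84 and 11.73 (log2 1.31, adjusted p 1.26e-08). The arrays of the groups lay at least 1 log2 unit apart for each of the 3 genes. *Ccl21*, a ligand of CCR7 that guides lymphocytes and dendritic cells, rose 4.97-fold from 8.24, 8.40 and 8.56 to 10.72, 10.75 and 10.68 (adjusted p 2.74e-09). The monocyte chemoattractants *Ccl2* and *Ccl7* rose by 0.84 and 0.72, the neutrophil attractant *Cxcl1* by 0.61, and the adhesion molecules *Icam1* and *Vcam1* by 0.42 and 0.37. *Ccl12* was at least 1.19-fold higher and the guanylate-binding *Gbp1* at least 1.34-fold, both undetected on HF-NDGA. Over the list of cytokines and chemokines 12 of 27 genes were higher and 1 lower, against 5.15% and 3.13% of all entries. The lower gene was *Cxcl13* (fell by 0.42), a B cell attractant whose call was lost under 3 settings. *Cxcl1* and *Vcam1* lost theirs under 1 each.

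The regions around the start of 4 of these genes are shown because they rose together and carry the core of the interferon-stimulated response element, searched on either strand as TTTC, any 2 bases and TTTC again (GAAA, any 2 bases and GAAA on the other strand). Each line gives 250 bases before and 50 after the annotated gene start from RefSeq (build GRCr8), 5′ to 3′ on the strand of the gene, with the match in capitals.
Gbp2 (chr2:234005477-234005776, plus strand): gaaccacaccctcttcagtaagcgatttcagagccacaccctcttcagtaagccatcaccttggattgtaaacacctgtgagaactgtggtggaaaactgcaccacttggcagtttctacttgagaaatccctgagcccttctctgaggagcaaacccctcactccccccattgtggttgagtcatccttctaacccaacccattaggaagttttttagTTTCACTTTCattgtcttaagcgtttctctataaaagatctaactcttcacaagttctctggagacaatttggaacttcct
Tap1 (chr20:4668494-4668793, minus strand): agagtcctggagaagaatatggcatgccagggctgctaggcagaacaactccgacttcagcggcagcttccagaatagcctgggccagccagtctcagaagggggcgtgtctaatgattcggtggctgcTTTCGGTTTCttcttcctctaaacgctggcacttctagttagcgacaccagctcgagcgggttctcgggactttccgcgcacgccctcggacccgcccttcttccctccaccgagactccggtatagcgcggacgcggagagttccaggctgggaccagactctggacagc
Psmb8 (chr20:4656982-4657281, minus strand): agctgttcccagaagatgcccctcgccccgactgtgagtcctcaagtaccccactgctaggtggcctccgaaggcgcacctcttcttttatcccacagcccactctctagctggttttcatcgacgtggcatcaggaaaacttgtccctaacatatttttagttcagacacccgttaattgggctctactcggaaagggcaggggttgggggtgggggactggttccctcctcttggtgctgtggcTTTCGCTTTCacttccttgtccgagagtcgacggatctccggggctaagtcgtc
Cxcl10 (chr14:15988816-15989115, plus strand): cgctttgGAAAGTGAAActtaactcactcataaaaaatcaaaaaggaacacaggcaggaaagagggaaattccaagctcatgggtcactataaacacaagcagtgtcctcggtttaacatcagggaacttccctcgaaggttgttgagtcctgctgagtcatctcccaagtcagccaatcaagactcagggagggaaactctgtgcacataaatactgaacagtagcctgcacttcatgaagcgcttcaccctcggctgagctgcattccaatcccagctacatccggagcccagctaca
The match started 31 bases before the annotated start in *Gbp2*, 121 before it in *Tap1*, 4 before it in *Psmb8* and 243 before it in *Cxcl10*. The core was found in 10 of the 16 promoters of listed interferon genes that the table holds, and in 7 of the 12 whose gene passed the test, against 3.77% of all 27457 promoters. The windows of *Cxcl9*, *Cxcl11*, *Mx1* and *Irf1* hold no match to these letters. A match describes the sequence and not the binding of a factor.

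**Figure D2:**
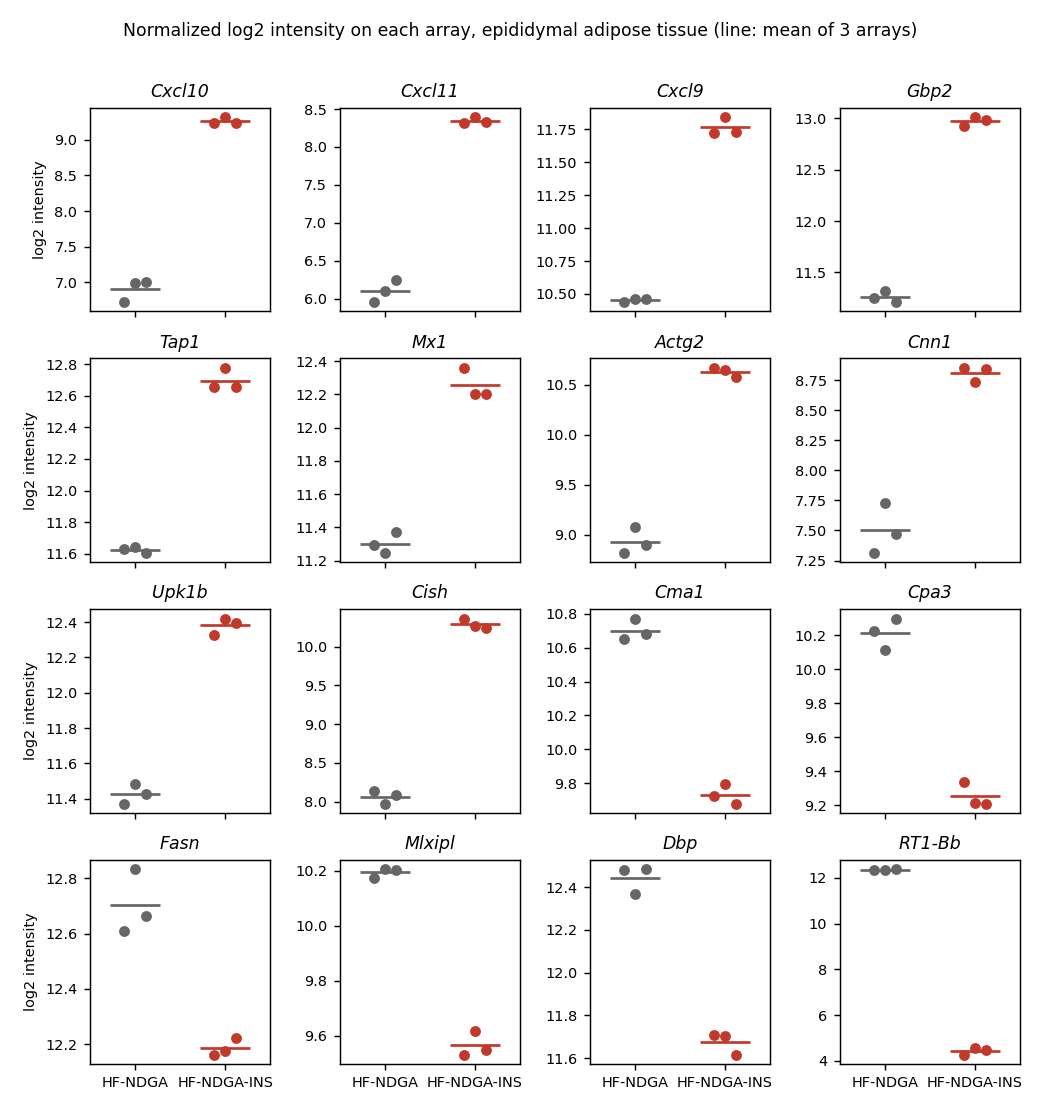
Normalized log2 intensity (vertical axis, its own range in each panel) of 16 genes on the 3 HF-NDGA arrays (grey) and the 3 HF-NDGA-INS arrays (red), with a line at the mean of 3 arrays. The groups do not overlap for any of the 16 genes, and within each panel the arrays of a group span less than the gap between the groups.

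The single largest difference was a loss of signal. *RT1-Bb*, which encodes the beta chain of the MHC class II molecule RT1.B on antigen-presenting cells, read 12.34, 12.35 and 12.38 on HF-NDGA and 4.27, 4.56 and 4.48 on HF-NDGA-INS, as deposited intensities of 4869 to 5548 against 14 to 31. It was detected on all 3 HF-NDGA arrays and on none of the HF-NDGA-INS arrays, a fall of at least 70-fold (adjusted p 1.34e-13). *RT1-Ba*, the alpha chain of the same molecule, fell 2.02-fold, from 13.16, 13.32 and 13.09 to 12.20, 12.02 and 12.30 (log2 -1.02, adjusted p 4.21e-05), with no overlap between the groups. *Cd74*, the invariant chain that class II molecules need for assembly, read 15.31, 15.35 and 15.27 against 15.15, 15.34 and 15.12 and did not pass the test (log2 -0.11, adjusted p 0.453; 0.15 without scaling), its arrays overlapping. The class II entry *RT1-Db2* went the other way and was called higher, by 0.42 here, 1.18 in liver and 0.99 in muscle. It was not carried through the alternative settings and is not counted among the named genes below. Class II genes are highly polymorphic between rats, and probe sequences were not analysed here.

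*RT1-Bb* was also undetected in the HF-INS group. In adipose tissue *RT1-Bb* was detected on all arrays of CHOW (12.37 to 12.47), CHOW-INS (12.86 to 12.96) and HF (11.89 to 12.002) and on none of HF-INS (4.79 to 5.36). In liver and muscle it was likewise detected on all arrays of HF-NDGA (intensities of 1444 to 1577 and of 717 to 788) and on none of HF-NDGA-INS (2 to 6 and 2 to 5). HF-INS was undetected in both tissues as well, and CHOW-INS was detected in both. The fitted difference between CHOW-INS and CHOW was 0.47 in adipose tissue, and that between HF-INS and HF was -6.91, with the HF-INS arrays at background. In adipose tissue *RT1-Ba* followed with smaller sizes, -1.02 on HF-NDGA and -0.96 on HF, against 0.60 on chow. In liver and muscle both genes had lower means on CHOW-INS than on CHOW. For *RT1-Bb* they were 10.8 against 11.6 in liver and 9.5 against 10.3 in muscle. For *RT1-Ba* they were 11.8 against 12.5 in liver and 10.4 against 10.9 in muscle. Whether the pools of the 3 tissues came from the same rats is not stated in the labels, so the tissues are not taken as independent observations.

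**Figure D3:**
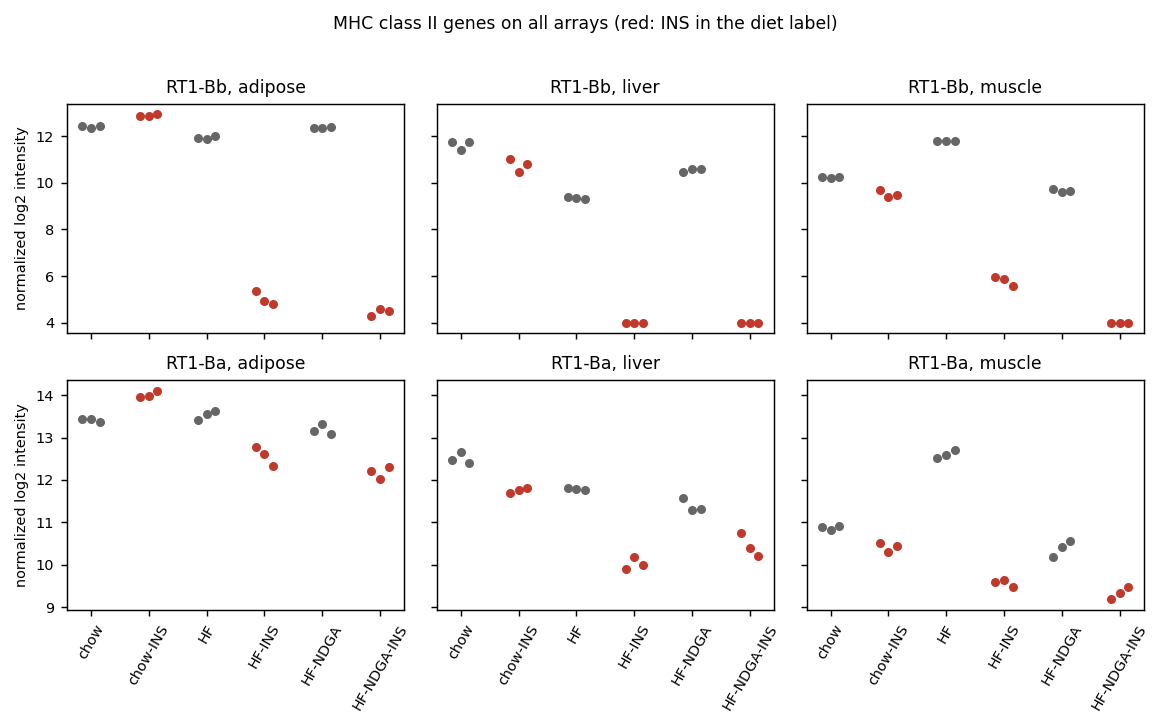
Normalized log2 intensity of *RT1-Bb* (upper row) and *RT1-Ba* (lower row) on all arrays of adipose tissue, liver and muscle, by diet label (3 arrays per group; red, INS in the label; each tissue normalized alone, with a floor at 4). *RT1-Bb* lies between 4 and 5.96 in HF-INS and HF-NDGA-INS and above 9 in all other groups.

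Genes that cytokine and growth factor signals switch on rose in part. *Cish*, a feedback inhibitor of STAT5 signalling downstream of growth hormone and cytokine receptors, read 8.13, 7.97 and 8.09 on HF-NDGA and 10.36, 10.26 and 10.25 on HF-NDGA-INS. The groups were apart by 4.68-fold (log2 2.23, SE 0.068, adjusted p 4.69e-10). On the scale of all 6 adipose groups the low value was that of HF-NDGA: the other groups had means of 10.22 (CHOW), 11.44 (CHOW-INS), 11.27 (HF) and 11.32 (HF-INS). *Gadd45g*, a stress and growth arrest gene, read 10.01, 10.04 and 10.13 against 11.33, 11.35 and 11.37 (2.45-fold, adjusted p 1.57e-08), and here too HF-NDGA was the lowest of the 6 group means. Among 28 immediate early genes, which respond within minutes to signals, 10 were higher and 1 was lower, against 5.15% and 3.13% of all entries. With arrays centred on their median 5 of these genes were higher and none lower, and without scaling 13 and none. *Ier3* rose by 0.95, the transcription factors *Atf3*, *Nr4a1* and *Fosl2* by 0.68, 0.67 and 0.54 (the last lost under 1 setting), and *Fos* fell by 0.28, with no overlap between the groups but a call that 13 of 19 settings lost. *Igfbp2* and *Igfbp4*, which bind insulin-like growth factors, rose by 0.94 and 0.70, with adjusted p of 1.2e-05 and 1.44e-05. The growth hormone receptor *Ghr* fell by 0.32, a call lost under 4 settings. The metal-binding *Mt2A* rose by 0.93 (adjusted p 8.51e-07).

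Markers of smooth muscle and of the mesothelial surface were higher with INS. Of 9 smooth muscle genes 7 were higher and none lower, where 5.15% of all entries were called higher and 3.13% lower. All 9 differences were above 0 (median 0.54). *Actg2*, the enteric form of smooth muscle actin, read 8.82, 9.08 and 8.90 against 10.67, 10.65 and 10.58 (3.25-fold, adjusted p 2.22e-08). *Cnn1*, an actin-binding protein of contractile cells, read 7.31, 7.73 and 7.47 against 8.85, 8.73 and 8.84 (2.47-fold, adjusted p 9.42e-07). Both were free of overlap, and *Acta2*, *Des*, *Myh11* and *Tagln* rose by 0.60, 0.56, 0.54 and 0.49. The summed intensity of the list was 9978 to 10051 on the HF-NDGA arrays and 15104 to 16083 on the HF-NDGA-INS arrays. Of 10 mesothelial and epithelial markers 7 were higher, among them the uroplakin *Upk1b*, which read 11.37, 11.48 and 11.43 against 12.33, 12.42 and 12.39 (log2 0.95, adjusted p 2.22e-09). Mesothelin, *Msln*, rose by 0.62, the keratins *Krt7* and *Krt8* by 0.72 and 0.52, and *Upk3b* by 0.47, a call lost under 6 settings. The summed intensity of these markers was 19710 to 21948 against 30951 to 31582.

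Part of the collagen and matrix genes were higher. For each count in this paragraph the shares over all entries were 5.15% higher and 3.13% lower. Of 38 collagen genes 8 were higher and none lower, and 7 differences were below 0 (median 0.098), with *Col4a5* of basement membranes (0.50), the fibrillar *Col1a2* (0.47) and *Col15a1* (0.31, lost under 1 setting) among them. *Spp1*, osteopontin, read 8.29, 8.26 and 8.34 against 9.60, 9.37 and 9.46 (2.27-fold, adjusted p 1.59e-06). *Timp1*, an inhibitor of metalloproteinases, read 11.58, 11.60 and 11.56 against 12.43, 12.55 and 12.64 (log2 0.96, adjusted p 5.58e-08). These 2 genes were the leading members of the matrix list, in which 5 of 29 were higher and none lower (10 differences were below 0), with elastin *Eln* (0.52), *Thbs2* (0.50) and *Bgn* (0.47, lost under 2 settings). *Nid1*, a laminin-binding basement membrane protein outside both lists, fell 2.20-fold, from 12.22, 12.31 and 12.21 to 11.16, 11.02 and 11.14 (adjusted p 6.69e-08). Of 12 fibroblast markers 4 were higher, led by *Fbln1* (0.65), and of 11 endothelial markers 3, led by *Vwf* (0.54). Their summed intensities were 122735 to 125493 against 138302 to 147627 for fibroblasts and 34573 to 35770 against 39062 to 40381 for endothelium. Proliferation genes were higher in 6 of 21 cases: *Top2a*, a topoisomerase of dividing cells, at least 1.72-fold, the proliferation antigen *Mki67* by 0.63 (lost under 1 setting) and the mitotic kinase *Cdk1* by 0.55 (lost under 5). The part of the amount of smooth muscle, mesothelium, fibroblasts and endothelium in these differences was not tested.

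**Figure D4:**
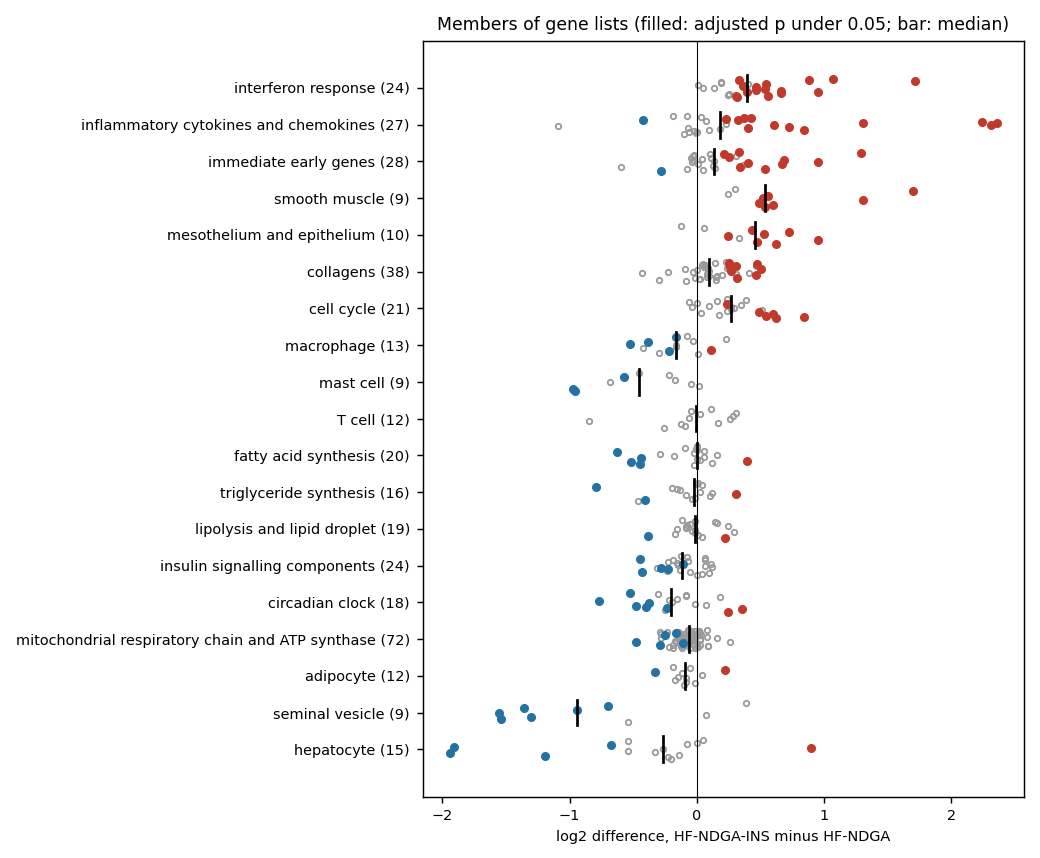
Difference between HF-NDGA-INS and HF-NDGA (log2, horizontal axis) of each measured member of 19 gene lists (rows, number of measured members in parentheses); filled points passed an adjusted p of 0.05, red higher and blue lower, open points did not, and bars mark the list median. All interferon response and smooth muscle genes lie above 0, and 6 of 9 seminal vesicle genes are filled below 0.

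Mast cell genes were lower for 3 of 9 members. *Cma1*, the mast cell chymase, read 10.65, 10.77 and 10.68 on HF-NDGA and 9.72, 9.79 and 9.68 on HF-NDGA-INS (1.96-fold lower, adjusted p 2.99e-05). *Cpa3*, a carboxypeptidase of mast cell granules, read 10.23, 10.11 and 10.30 against 9.33, 9.21 and 9.21 (1.95-fold lower, adjusted p 3.51e-06). The groups did not overlap for either gene, and *Fcer1a*, a chain of the IgE receptor, fell by 0.57; the other 6 of 9 mast cell genes did not pass. The summed intensity of the list was 5517 to 5576 against 3268 to 3748. Among 13 macrophage genes 4 were lower and 1 higher (1 and 1 without scaling, none with arrays centred on their median). The integrin *Itgam* fell by 0.53 and the lectin *Clec10a* by 0.39, each call lost under 2 settings. No T cell gene of 12 and no neutrophil gene of 10 passed (3 and 2 were higher without scaling), at a summed intensity of 2318 to 2676 against 2418 to 2445 for T cells, and the T cell receptor component *Cd3e* was not above background in either group. Of 8 B cell genes 1 was lower. Over all entries 5.15% were called higher and 3.13% lower. In lists this short, no T cell or neutrophil call and 1 B cell call say little about these cells.

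*Cd300lg*, a receptor of capillary and venular endothelium, showed the largest rise among entries whose arrays agreed within 2 log2 units in each group. It read 7.91, 7.62 and 7.55 against 11.04, 11.11 and 10.98, 10.2-fold higher (log2 3.35, SE 0.10, adjusted p 4.69e-10), with the groups about 3 log2 units apart. *Mmrn1*, multimerin of platelets and endothelium, rose 3.37-fold (7.58, 7.41 and 7.55 against 9.17, 9.25 and 9.38, adjusted p 2.84e-08). *Cldn11*, a tight junction claudin, rose 3.09-fold and was detected on 1 of the 3 HF-NDGA arrays, and *Wfdc18* rose 2.68-fold. *Madcam1*, a vascular addressin for lymphocytes, was at least 1.19-fold higher, a call lost under 1 setting. The entry LOC501937 was listed at the floor on all HF-NDGA arrays and read 7.01, 6.74 and 6.52 on HF-NDGA-INS, at least 1.38-fold higher.

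Lipid genes were split. In fatty acid synthesis 4 of 20 genes were lower and 1 higher (3 and 2 without scaling). The shares over all entries were 3.13% lower and 5.15% higher. *Mlxipl*, which encodes the carbohydrate response factor ChREBP, read 10.18, 10.21 and 10.21 against 9.53, 9.62 and 9.55 (log2 -0.63, adjusted p 1.53e-04). *Fasn*, fatty acid synthase, read 12.61, 12.83 and 12.66 against 12.16, 12.17 and 12.22 (1.43-fold lower, adjusted p 6.57e-04). Both genes were lower on each HF-NDGA-INS array than on any HF-NDGA array. The elongase *Elovl5* and the carboxylase *Acaca* fell by 0.44 and 0.44 (*Acaca* was detected on 2 of 3 HF-NDGA-INS arrays), while the desaturase *Scd1* rose by 0.40. *Mogat2*, which acylates monoacylglycerol, fell by 0.79 (adjusted p 5.28e-05), and *Gpat3* fell by 0.41 while the phosphatidate phosphatase *Lpin1* rose by 0.31. The triglyceride lipase *Pnpla2* rose by 0.22 and the monoglyceride lipase *Mgll* fell by 0.38. *Angptl4*, an inhibitor of lipoprotein lipase that rises on fasting, rose by 0.55 (adjusted p 1.63e-04), *Fabp5* rose by 0.23 and *Fabp3* fell by 0.35. Calls of *Acaca* and *Lpin1* were lost under 8 settings each, of *Pnpla2* under 11, of *Mgll* under 7, of *Gpat3* under 6, of *Fasn* and *Fabp3* under 2, and of *Elovl5*, *Scd1* and *Fabp5* under 1. Of 22 genes of mitochondrial beta-oxidation 1 was higher and 1 lower, near the shares over all entries.

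Part of the insulin signalling, adipogenic and adipokine genes changed. Of 24 insulin signalling genes 5 were lower and none higher (median -0.12), where 3.13% of all entries were lower and 5.15% higher. With arrays centred on their median none was lower, and without scaling 1 was lower and 3 higher (median 0.11, against 0.15 over all genes). Among the 5 lower genes were *Pik3r1* (fell by 0.43), the regulatory subunit of phosphoinositide 3-kinase, and the kinase *Pdpk1* (fell by 0.28), which lost their calls under 1 and 2 settings. Of 25 transcripts regulated by insulin or fasting 6 were higher and 3 lower (median -0.019). With centred arrays 1 of these was higher and none lower, and without scaling 9 and 1. *Txnip*, which glucose induces, rose by 0.44 (adjusted p 1.47e-05), and lost its call under 1 setting. Of 20 adipogenic factors *Pparg* and *Cebpa*, the central pair of adipocyte differentiation, fell by 0.33 and 0.31, and 3 rose, among them *Klf5* (0.52) and *Cebpd* (0.37). *Pparg* and *Cebpa* each lost the call under 2 settings and *Cebpd* under 1. Among 19 adipokines *Lcn2*, lipocalin 2, rose by 0.81 (9.52, 9.64 and 9.65 against 10.43, 10.42 and 10.40, adjusted p 3.23e-07) and *Serpina12*, vaspin, fell by 0.61 (adjusted p 7.85e-04). *Adipoq* was at saturation on 2 HF-NDGA arrays and on all 3 HF-NDGA-INS arrays, so no difference is read from it. Leptin, *Lep*, did not pass (log2 -0.17, adjusted p 0.18); it was at 0.025 without scaling and fell by 0.45 with the mean of its probes (limma, adjusted p 0.00701). The glucose transporter *Slc2a4* did not pass either (-0.19, adjusted p 0.149); it was at 0.061 without scaling and passed in the fit without the HF and HF-INS arrays (-0.19, adjusted p 0.0163). Of 12 adipocyte markers 1 was higher and 1 lower, and their summed intensity was 418607 to 432236 against 392410 to 407728.

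Genes of the lipoxygenase and prostaglandin pathways, the enzymes NDGA acts on among them, gave 3 higher and 1 lower of 26. The shares over all entries were 5.15% higher and 3.13% lower. 5-lipoxygenase, *Alox5*, read 10.40, 10.49 and 10.40 against 10.24, 10.29 and 10.32 and did not pass (log2 -0.15, adjusted p 0.404). It was at 0.11 without scaling and passed in the fit without the HF and HF-INS arrays (-0.15, adjusted p 0.0405). Its partner *Alox5ap* fell by 0.29, a call lost under 2 settings, and *Ptgds*, prostaglandin D synthase, rose by 0.62.

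Clock genes shifted in both directions. Of 18 genes 6 were lower and 2 higher (median -0.21), where 3.13% of all entries were called lower and 5.15% higher. Without scaling 1 was lower and 3 higher (median 0.0033, against 0.15 over all genes). With arrays centred on their median 1 was lower and none higher (median -0.15). *Dbp*, an output factor of the clock, read 12.48, 12.37 and 12.48 against 11.71, 11.70 and 11.62 (1.70-fold lower, adjusted p 3.1e-06). The repressors *Bhlhe41*, *Nr1d1*, *Per1*, *Per2* and *Per3* fell by 0.53, 0.38, 0.24, 0.40 and 0.48 (*Per1* was at 0.0047 without scaling), and the activators *Bmal1* and *Npas2* rose by 0.25 and 0.36. Only *Dbp* of these kept its call under all 19 settings; *Per3* lost it under 11, *Per2* under 7, *Per1* under 4 and the others under 1 or 2.

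The stress lists differed in their number of calls. None of 25 genes of the endoplasmic reticulum stress response passed in limma (7 were higher without scaling; unadjusted, 20.5% of all entries had a p under 0.05). In the heat shock list 5 of 16 were lower and 2 higher, where 3.13% of all entries were lower and 5.15% higher. Without scaling the list had none lower and 4 higher, and with centred arrays none and 2. The small heat shock protein *Cryab* fell by 0.47 (lost under 2 settings) and *Hspa2* rose by 0.60. Of 20 NRF2 targets 4 were lower, among them the quinone reductase *Nqo1* (fell by 0.43, lost under 3 settings), and 2 higher, among them the glutathione transferase *Gstm1* (0.47); without scaling none was lower and 6 were higher, and with centred arrays none and 2. Of 72 respiratory chain and ATP synthase genes 5 were lower and none higher, with a median of -0.063. Without scaling 1 was lower and 7 higher (median 0.14, against 0.15 over all genes). *Sc5d*, a late enzyme of cholesterol synthesis, fell 2.34-fold, from 8.51, 8.87 and 8.67 to 7.53, 7.37 and 7.47 (adjusted p 4.21e-05), whereas the other 23 genes of that list gave 1 higher and 1 lower. *Mak16*, a factor of ribosome assembly known from yeast, fell 2.44-fold, from 9.70, 9.56 and 9.66 to 8.40, 8.37 and 8.28 (adjusted p 5.33e-08).

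Genes listed as markers of seminal vesicle, liver and skeletal muscle gave signal, and part of them were lower with INS. The shares over all entries were 3.13% lower and 5.15% higher. Of 9 seminal vesicle genes 6 were lower and none higher: *Svs4* read 10.89, 10.83 and 10.96 against 9.30, 9.47 and 9.25 (2.94-fold lower, adjusted p 1.68e-05), *Semg1*, *Svs6*, *Svs3a* and *Svs5* fell by 1.53, 1.36, 1.30 and 0.94, and *Pate4* fell by 0.70, a call lost under 5 settings. The summed intensity of the list was 6192 to 6474 against 3094 to 4010. Liver genes gave 4 lower and 1 higher of 15. Transthyretin, *Ttr*, read 7.76, 8.07 and 8.07 against 6.25, 5.91 and 5.92, at least 3.33-fold lower and undetected on HF-NDGA-INS, *Ahsg*, fetuin A, was 3.75-fold lower by a probe not detected on HF-NDGA-INS, where another probe was detected on 2 of 3 arrays, *Cyp2e1* fell by 0.68, and *Fgg*, a fibrinogen chain, rose by 0.90. *Fabp1*, the liver fatty acid-binding protein and no member of the list, was at least 2.40-fold lower. The summed intensity of the liver list was 103207 to 113240 against 104785 to 106514. Of 18 skeletal muscle genes 4 were lower, *Myh1* by 1.80-fold and *Myl11* by 1.48-fold (detected on 2 of 3 HF-NDGA arrays, lost under 4 settings), and 1 higher, *Myoz1* (0.52, lost under 1). The part of tissue carried along at dissection in these values was not tested.

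A few large differences rested on arrays that disagreed. Over all entries 219 had a range of at least 2 log2 units among the 3 arrays of a group, and 3 of them were called. *Psat1*, an enzyme of serine synthesis, read 12.72, 12.83 and 12.64 on HF-NDGA but 6.22, 12.54 and 4 on HF-NDGA-INS (adjusted p 0.0442), so that 1 of the 3 INS arrays lay close to the other group. *Car6*, a secreted carbonic anhydrase, read 4, 4 and 10.05 against 10.03, 10.19 and 10.18 (adjusted p 0.0413), with 1 HF-NDGA array at the level of the INS arrays. The coagulation factor *F7* was not above background in either group. These 3 genes were singled out after their values were seen, and *Psat1* and *Car6* lost their calls under 8 settings each and *F7* under 6. *Hs3st3b1*, a heparan sulfate sulfotransferase, read 7.33, 7.15 and 6.50 against 4.79, 5.49 and 5.84, was detected on 2 of 3 INS arrays by another probe and on none by the probe given here, and lost its call under 5 settings. *Adam12*, a metalloproteinase, read 8.99, 8.90 and 8.20 against 6.96, 7.31 and 7.78 and also lost its call under 5. Neither overlapped between the groups, though the arrays of each group spread widely. Without the entries of wide range 1635 entries were called, 99 of them with a fold of at least 2.

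Whether the INS difference was the same on the other diets was tested as an interaction. On chow 4391 entries passed (22.2%) and on HF 9254 (46.8%), and the INS difference on HF-NDGA differed from that on chow for 3597 entries (18.2%) and from that on HF for 7353 (37.2%). The share of interactions above 0 was 60.2% against chow and 37% against HF; it was 72.6% and 43% with arrays centred on their median, 72.5% and 33.9% without scaling, and 52.6% and 23.9% with 75th percentile scaling. On chow 40.1% and on HF 68.8% of calls were higher, 24.8% on chow with centred arrays and 67.7% on chow and 84.5% on HF without scaling. Both interactions passed for the CXCR3 chemokines: *Cxcl10* rose by 2.36 against 0.75 on chow and 0.95 on HF (interaction adjusted p 8.34e-07 and 1.41e-06), *Cxcl11* differed by 0.16 and 0.17 (2.25e-08 and 1.36e-08), and *Cxcl9* by -0.55 and 0.28 (3.86e-09 and 4.2e-07). *Cxcl10* was not above background on HF, nor *Cxcl11* on CHOW, HF and HF-NDGA, so the sizes of these differences depend on background, whereas *Cxcl9* was detected on every array. *Ccl21* was higher with INS on the other diets too, with means of 11.45 (CHOW) and 12.95 (CHOW-INS), and of 8.52 (HF) and 12.28 (HF-INS). Of the 27 cytokine and chemokine genes 15 were higher and 3 lower on chow (8.9% and 13.3% of all entries). On HF 12 were higher and 4 lower (32.2% and 14.6%). *Gbp2* differed by 0.45 on chow and -0.10 on HF (5.08e-09 and 7.2e-11), while *Mx1* rose by 1.01 on chow and its interaction there did not pass (0.711). Over the interferon list the median was 0.07 on chow and 0.17 on HF, with 6 of 24 genes higher on chow (8.9% of all entries) and 12 higher and 6 lower on HF (32.2% and 14.6%), and 13 and 14 interactions passed.

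*Actg2* and *Cnn1* fell by 0.55 and 0.58 on chow and by 1.61 and 1.60 on HF, opposite to HF-NDGA (interaction adjusted p 1.09e-08 and 1.99e-07 against chow, 1.52e-10 and 1.71e-09 against HF), and the smooth muscle list had 7 of 9 genes lower on chow (13.3% of all entries) and 5 on HF. *Cma1* and *Cpa3* rose by 0.75 and 0.66 on chow and fell by 0.74 and 0.60 on HF, where the interaction passed for *Cpa3* (0.0164) and not for *Cma1* (0.21). *Fasn* and *Mlxipl* differed by -0.032 and 0.042 on chow and by 0.007 and -0.0093 on HF, and all 4 interactions passed (adjusted p 0.00519, 5.59e-04, 0.0015 and 4.83e-04). *Elovl5* and *Pik3r1* rose on both other diets, by 0.79 and 0.59 on chow and 1.35 and 0.76 on HF. *Cd300lg* differed by -0.65 on chow (6.84e-10) and rose by 3.21 on HF, where the interaction did not pass (0.518; difference of the differences 0.14, SE 0.14). Beside these values, T cell markers were higher in the CHOW-INS pool than in CHOW (11 of 12 called, median 2.23), B cell markers likewise (7 of 8, median 2.80), and all 18 skeletal muscle genes were lower there (median -2.65). In the HF comparison 8 of 9 seminal vesicle genes were lower with INS (median -6.90), 13 of 15 liver genes higher (median 2.58), 15 of 18 skeletal muscle genes lower (median -0.86) and all 5 erythroid genes lower (median -3.18). The part of these markers in the interactions was not tested.

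**Figure D5:**
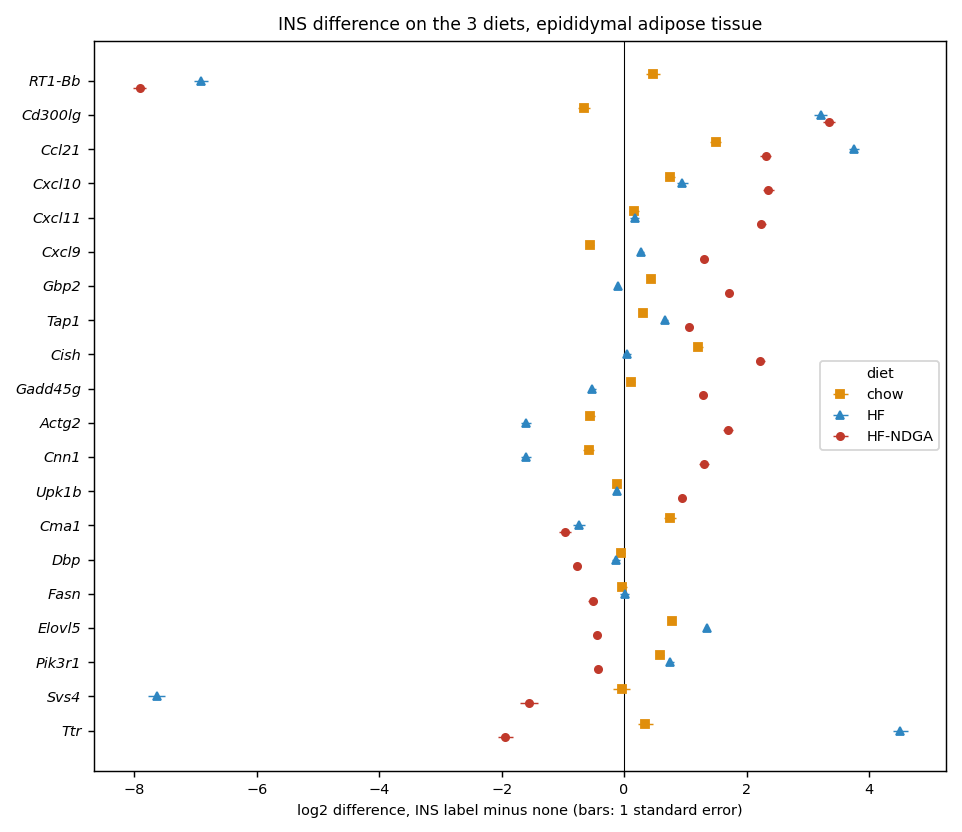
Difference between the group with and the group without INS in the label (log2, horizontal axis, bars 1 standard error) for 20 genes on chow (orange squares), HF (blue triangles) and HF-NDGA (red circles) in adipose tissue. *Actg2* and *Cnn1* lie above 0 on HF-NDGA only, and *RT1-Bb* lies far below 0 on HF and HF-NDGA but not on chow.

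On the HF-NDGA diet the INS comparison in liver called 4062 entries (20.5%) and in muscle 3221 (16.3%), each tissue normalized and fitted alone. Of the 1638 adipose calls 19.2% were called in the same direction in liver (7.73% of the liver calls) and 22.5% in muscle (11.5% of the muscle calls), while 159 and 149 were called in the opposite direction. In all 3 tissues 52 entries were higher and 44 lower. *Gbp2* rose by 1.06 in liver and 0.86 in muscle, and *Tap1* by 1.03 and 0.88, against 1.07 in adipose tissue. Over the 24 interferon genes the median was 0.65 in liver and 0.24 in muscle, against 0.40 in adipose tissue. In liver 15 of them were higher and 1 lower, and in muscle 9 and 2. *Isg15* rose by 1.59 in liver against 0.66 in adipose tissue. *Mak16* fell by 1.70 and 1.33, and *Dbp* by 1.44 and 0.96. *Sc5d* and *Fasn* fell by 0.95 and 1.27 in liver, and in muscle neither was above background with INS. *Gadd45g* and *Cish* rose by 3.30 and 2.76 in liver, and in muscle *Gadd45g* rose by 0.74 but *Cish* fell by 0.73. *Cxcl10* differed by 0.014 in liver (adjusted p 1) and was not above background in muscle, and *Cxcl9* rose by 0.76 in muscle but differed by 0.10 in liver (adjusted p 0.433). The smooth muscle markers *Actg2* and *Myh11* rose by 1.58 and 0.70 in muscle and did not pass in liver (0.28 and -0.14).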

How the data were processed

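RNA of each tissue and diet group was pooled, amplified, labelled with Cy5 and hybridized on Rat OneArray v1, with 3 repeat arrays per pool. The authors deposited background-subtracted intensities of the spots, each with a p-value for its detection; per the file headers these intensities are raw, and although the table is named normalized no scaling between arrays was found in them. The second deposited table held the same 1315332 values, and 54 columns of spot flags were not used. How the deposited detection p-value was computed is not stated.

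The 18 adipose arrays were quantile-normalized (limma 3.58.1, R 4.3.3), set to a floor of 16 and converted to log2. Of 24358 probes 21270 carried 1 symbol, 1175 several and 1913 none; symbols were updated through RefSeq (2585 of 18773) and 2757 were not found there. The brightest probe stood for each entry. A linear model of the 6 groups with moderated variance gave each comparison, with Benjamini-Hochberg adjustment over 19791 entries and a threshold of 0.05. A gene counted as not above background where no array of the group had a detection p under 0.05, and as saturated from 65000. Where only the dimmer group was not above background, a lower bound of the fold is given. Tested on simulated data of 19791 genes with 200 changed, the fit called 97% of changes of 1 log2 unit and 87% of changes of 0.5, and 6.12% of calls were false. The changed genes were drawn from brighter genes only. Independent noise was added after normalization, so these shares do not cover dim genes, the scaling or effects shared by the genes of an array.

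Genes were named from the largest differences past the test with no overlap between arrays (20 each way), from the members with the largest differences of each list (up to 5) and from the largest interactions; other list members and single genes were added after their values were seen. The members and lists were chosen with earlier results of these data known. Alternatives were median centring, no scaling, scaling at the 75th percentile, normalization over all 54 arrays, other floors, an offset, the mean of the probes, other variance models, fewer arrays, a filter on detection and leaving out each array.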

Additional observations from a re-analysis of the deposited data

Results flagged for a closer look

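Of the 136 genes named, 110 passed the interaction with chow and 97 that with HF (limma, adjusted p under 0.05), and 29 differed from both other diets by at least 1 log2 unit. Over all entries 18.2% and 37.2% passed. Many of the genes were named for a large INS difference or a large interaction, so high counts follow from the selection and are no result about them. Each value below is the INS difference on HF-NDGA minus that on the other diet, chow first and HF next, with the adjusted p under 0.05 for both.

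Of the 24 listed interferon genes 13 passed the interaction with chow and 14 that with HF, where 18.2% and 37.2% of all entries did. For *Cxcl10* the values were 1.61 and 1.41, for *Cxcl11* 2.08 and 2.07, for *Cxcl9* 1.86 and 1.03. For *Gbp2* the values were 1.27 and 1.82, for *Gbp1* 2.74 and 1.61. *Cxcl10* was not above background on HF, *Cxcl11* on CHOW, HF and HF-NDGA, and *Gbp1* on CHOW-INS, HF, HF-INS and HF-NDGA, so the sizes of their values depend on background.

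Signal-responsive, clock, lipid and insulin signalling genes differed in either direction. For *Cish* the values were 1.01 and 2.18, for *Gadd45g* 1.17 and 1.81, for *Fos* 1.53 and -1.89. For *Per2* the values were -1.04 and -2.34, for *Elovl5* -1.22 and -1.78, for *Pik3r1* -1.02 and -1.19. *Fos* fell less than on chow and stood below its HF value, and its call on HF-NDGA itself was lost under 13 settings, that of *Per2* under 7.

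Of 9 smooth muscle genes 7 passed the interaction with chow and 8 that with HF, of 10 mesothelial and epithelial genes 6 and 7, and of 11 endothelial genes 6 and 6. The shares over all entries were 18.2% and 37.2%. For *Actg2* the values were 2.25 and 3.31, for *Cnn1* 1.88 and 2.90, for *Des* 1.21 and 1.11. For *Upk1b* the values were 1.07 and 1.07, for *Upk3b* 1.18 and 1.94, for *Wfdc18* 1.45 and 1.11. For *Madcam1* the values were 1.15 and 1.42. *Madcam1* was not above background on CHOW, CHOW-INS and HF-NDGA, so the size of its values depends on background.

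For part of the seminal vesicle and liver genes the sizes depend on background. For *Svs4* the values were -1.51 and 6.08, for *Semg1* -1.61 and 6.89, for *Svs6* -1.36 and 7.80. For *Svs3a* the values were -1.21 and 6.87, for *Svs5* -1.32 and 5.94, for *Ttr* -2.29 and -6.45. For *Ahsg* the values were -2.30 and -6.25, for *Fabp1* -2.52 and -5.32, for *Cyp2e1* -1.29 and -3.41. *Svs4* and *Semg1* were not above background in either chow group, *Svs6* in either chow group and on HF-INS, *Fabp1* in either chow group and on HF-NDGA-INS, *Ttr* on HF-NDGA-INS and *Cyp2e1* on HF. The probe of *Ahsg* was not detected on HF-NDGA-INS. On HF the medians of the seminal vesicle and liver lists were -6.90 and 2.58, and the part of such tissue was not tested.

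Single genes of immune cells completed the set. For *RT1-Bb* the values were -8.39 and -1.01, for *Cd3e* -2.76 and 1.997. *RT1-Bb* was undetected in both HF-INS and HF-NDGA-INS, so its value against HF reflects the levels of HF and HF-NDGA and background. *Cd3e* was not above background in either HF-NDGA group, on CHOW or on HF-INS; T cell markers were higher in CHOW-INS (median 2.23).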

How the results depend on the processing

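No paired analysis was possible because the replicate numbers are only accession order. Of the 130 named genes that passed the test, 79 kept direction and call under all alternatives run for them, up to 19, and 51 lost the call under at least 1: 37 with median centring, 18 without scaling (and *Per1*, whose sign turned), 27 with only the 6 arrays and 10 to 16 when 1 array was left out. With median centring 647 entries changed on HF-NDGA (565 of them among the 1638) and 4550 interactions with HF passed; without scaling 3798 changed, and with only the 6 arrays 1044. The entries changed by at least 2-fold numbered 171 with a floor of 1, 54 with a floor of 64, 67 with an offset of 16 and 67 among the 12500 entries detected on all arrays of a group. Leaving out 1 array gave 1088 (without the first HF-NDGA-INS array) to 1415 changed entries and 85 to 131 with a fold of 2, 3086 to 3520 interactions with chow and 6670 to 7281 with HF, and 3356 to 4095 changes on chow and 8165 to 8871 on HF. Without scaling, the sign turned for *Per1* (0.0047), *Adipoq* (0.014), *Lep* (0.025), *Slc2a4* (0.061), *Alox5* (0.11) and *Cd74* (0.15). Of the genes that did not pass, *Adipoq*, which is saturated, passed with 75th percentile scaling (limma, adjusted p 0.0358), *Lep* with the mean of its probes (0.00701), and *Slc2a4* (0.0163) and *Alox5* (0.0405) without the HF and HF-INS arrays. The cause was not tested. Dim genes are limited by background, where the floor sets the size of a difference, and 3 called entries by saturation.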
